A study of Mus musculus with 6 samples.

Results

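The genes described are 36 components of regulated exocytosis, the step in which secretory granules dock at the plasma membrane and fuse with it. Membership is by gene name, with no threshold on a measured value, and the list was drawn up with earlier results of these data known. Of the 36 genes, 35 had at least 1 probe set assigned to that gene alone, out of 18193 such genes on the array, and Sytl5 had none in the annotation used here. The 35 genes had 89 probe sets, and the one with the highest mean log2 signal over the 6 arrays stood for the gene. A gene was tested where its signal exceeded the array median on 3 or more arrays, which held for all 35 and for 11703 genes in all. Doc2b reached that number through its 3 knockout arrays, with 1 control array above the median. For the other 34 genes, too, at least 1 array of each genotype was above it.

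In granule fusion, syntaxins and SNAP-25 in the plasma membrane pair with a VAMP protein in the granule membrane to form the SNARE complex that drives fusion. Many synaptotagmins and the Doc2 proteins sense calcium. Rab3 and Rab27 GTPases with their effectors bring granules to the membrane, and Munc13, CAPS and complexin proteins prepare and hold the complex. NSF with its adaptor SNAP takes spent complexes apart. In beta cells this machinery releases insulin, and closely related isoforms serve exocrine cells and neurons.

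The samples were isolated pancreatic islets of mice, 3 labelled control and 3 labelled VhlhKO, hybridised to 1 Affymetrix array each. The knockout deletes a floxed Vhlh allele, Vhlh(fl/fl), with RIP2-Cre, a recombinase driven by the rat insulin promoter, so the other cells of an islet keep the gene. The sources used here do not say which of these alleles the controls carry. In each genotype, array 01 came from 26-week-old male mice, array 02 from 20-week-old female mice and array 03 from 18-week-old male mice. Each array holds 1 batch of islets, and how many mice went into a batch is not stated in them. P-values therefore measure the spread between batches. The question here is whether the release machinery differs after loss of the von Hippel-Lindau protein, the ubiquitin ligase subunit that targets hypoxia-inducible factor (HIF).

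Values are the authors' MAS5 signals, in arbitrary units on a linear scale, and differences are log2 signals of knockout minus control. Array medians lay between 101.9 and 122.7 units. Beta-cell transcripts were bright, as the islet label implies: Iapp, the amylin gene, read between 24545 and 64210 on the 6 arrays. This says little of purity, since the acinar gene Prss2 read between 2069 and 68564. Of 4 beta-cell markers, 2 had higher means in knockouts and 2 lower, of which Ucn3 was lower in 3 of 3 pairs. Their summed signal ran from 73246 to 99323 in controls and from 54912 to 113319 in knockouts. All 4 markers of alpha, delta and PP cells had higher means in knockouts, with summed signals that overlapped. Vhl itself read 457, 639 and 839 in controls and 344, 358 and 467 in knockouts, a log2 difference of -0.70 (standard error, SE, 0.32, limma adjusted p 0.9999), and it was lower in 3 of 3 pairs. Whether this probe set lies in the deleted part was not examined. The enzyme gene Ldha, a known HIF target, read 645, 1328 and 481 in controls and 5476, 5635 and 6100 in knockouts, a log2 difference of 2.95 (SE 0.37, limma adjusted p 0.067). Markers of other cells differed between arrays: the summed signal of 8 acinar markers ran from 100102 to 331715 in controls and from 8386 to 413291 in knockouts. Over 5 markers of neurons and Schwann cells it ran from 982 to 1847 in controls and from 1643 to 3674 in knockouts. The 4 fibroblast markers summed to between 991 and 2721 in controls, 2858 and 2505 in knockouts 01 and 02, and 13499 in knockout 03. No marker was at 0.

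No transcript of the exocytosis machinery was shown to differ between genotypes beyond the spread of the batches. With limma's moderated test, 0 of the 35 genes passed an adjusted p of 0.05, where 0.0171% of all genes tested did, and every one of the 35 had an adjusted p of 0.9999. At an unadjusted p under 0.05 there was 1 gene that was higher, Doc2b, against 2.03% of all genes, and 0 that were lower, against 0.53%. With the replicate number as a block the count was 1 higher, Doc2b, against 3.68% of all genes, and 2 lower, Pclo and Cadps2, against 1.31%. Log2 differences lay between -0.65 for Pclo and 1.33 for Doc2b. They were above 0 for 15 genes and below 0 for 20, with a median of -0.036, beside a median of 0.0050 over the 11703 genes tested. Of the 35 genes, 30 differed by less than 0.5 either way, as did 83.3% of all genes tested.

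A missed threshold does not show that a gene stayed at its control level. The 95% intervals of the differences, from the fit without the replicate block, bound what that fit could resolve. For 17 of the 35 genes the interval lay wholly inside a 2-fold change in either direction, where 46.0% of all genes tested did. For 10 genes the interval reached a 2-fold higher level and for 9 a 2-fold lower level, Cplx2 among both. In islets, which are a mixture, fewer cells of a type and less RNA per cell cannot be told apart.

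**Figure D1:**
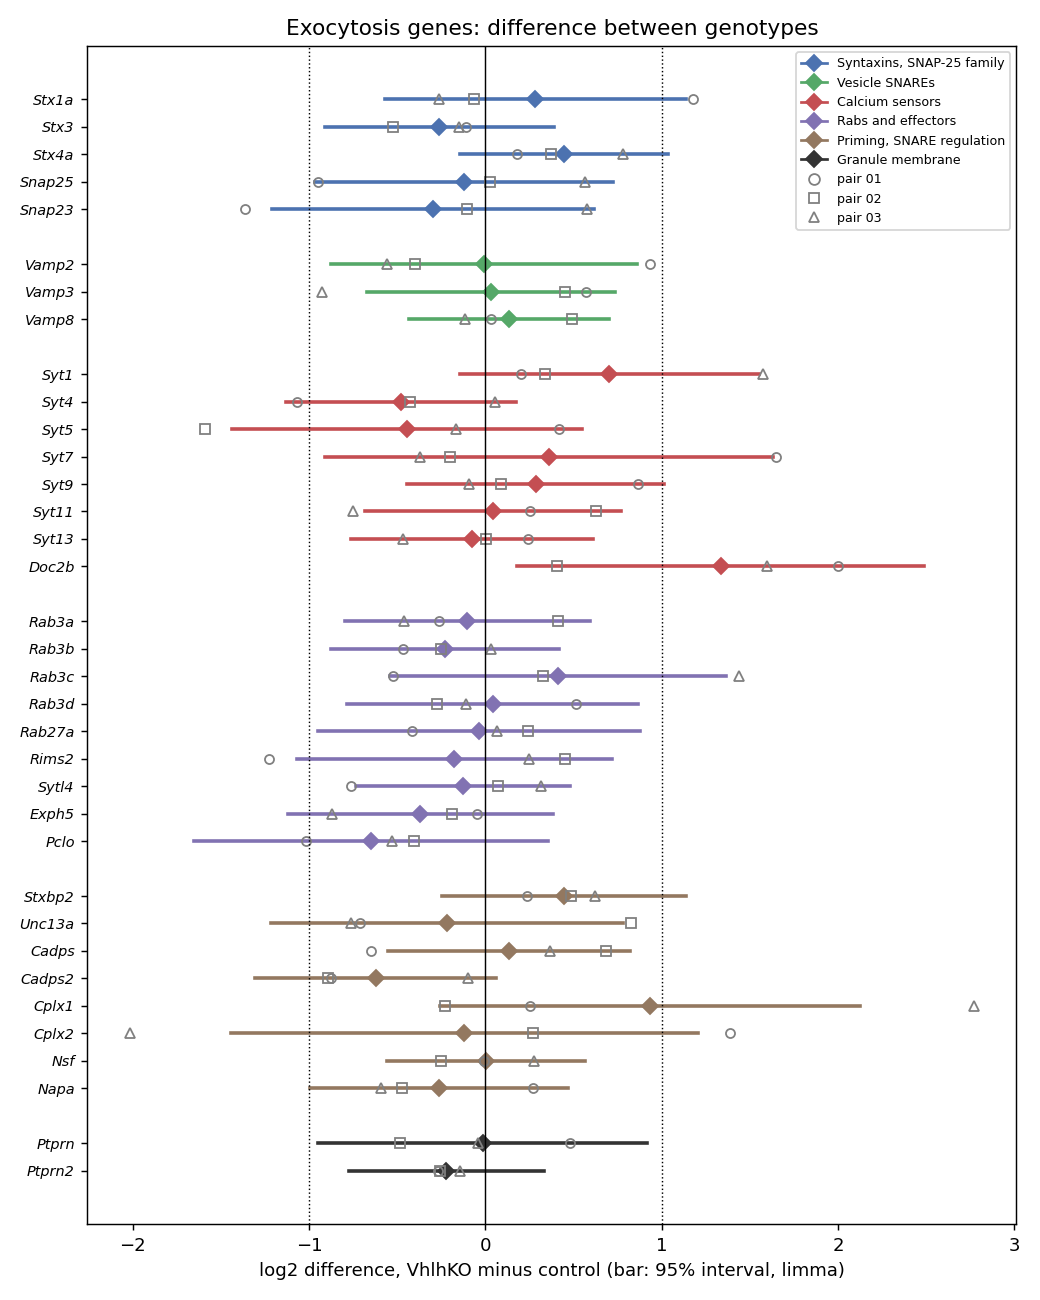
Log2 difference between genotypes (horizontal axis) for the 35 exocytosis genes, ordered by role. Diamonds are the differences, bars limma's 95% intervals, open symbols the differences within the same-numbered pairs, and dotted lines 2-fold changes. The bar of Doc2b is the only one that leaves out 0, and its adjusted p was 0.9999.

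The share of genes whose groups did not overlap was near that of all genes. All 3 knockout signals lay above all 3 control signals for 2 of the 35 genes, Stx4a and Doc2b, where 4.02% of all genes tested did so. They lay below all control signals for 1 gene, Cadps2, where 2.69% of all genes tested did so. In the same-numbered pairs, 4 genes were higher in the knockout in 3 of 3 pairs (Stx4a, Syt1, Doc2b and Stxbp2), beside 13.8% of all genes tested. Another 5 were lower in 3 of 3 pairs (Stx3, Exph5, Pclo, Cadps2 and Ptprn2), beside 10.9% of all genes tested.

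The base sequences before the starts of Stx4a, Cadps2 and Pclo are shown, chosen by their values in these data. The first pair did not overlap between genotypes, and Pclo had an unadjusted limma p of 0.0218 with the replicate block. Doc2b had no entry in the promoter table. The windows are the 250 bases before the RefSeq start (build GRCm38.p6), with HIF core motifs, ACGTG or GCGTG on either strand, in capitals. The Stx4a window is chr7:127841558-127841807 on the plus strand, that of Cadps2 chr6:23839422-23839671 on the minus strand and that of Pclo chr5:14514668-14514917 on the plus strand.
Stx4a: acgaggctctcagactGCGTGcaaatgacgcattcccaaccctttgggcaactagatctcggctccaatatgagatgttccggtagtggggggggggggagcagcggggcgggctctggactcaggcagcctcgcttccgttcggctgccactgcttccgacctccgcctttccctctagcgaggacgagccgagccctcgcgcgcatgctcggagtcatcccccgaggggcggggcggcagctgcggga
Cadps2: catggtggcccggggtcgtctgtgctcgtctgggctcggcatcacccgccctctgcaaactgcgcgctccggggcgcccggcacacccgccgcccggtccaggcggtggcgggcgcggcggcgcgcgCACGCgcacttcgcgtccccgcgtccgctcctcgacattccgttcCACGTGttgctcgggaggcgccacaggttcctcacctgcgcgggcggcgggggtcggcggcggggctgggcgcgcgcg
Pclo: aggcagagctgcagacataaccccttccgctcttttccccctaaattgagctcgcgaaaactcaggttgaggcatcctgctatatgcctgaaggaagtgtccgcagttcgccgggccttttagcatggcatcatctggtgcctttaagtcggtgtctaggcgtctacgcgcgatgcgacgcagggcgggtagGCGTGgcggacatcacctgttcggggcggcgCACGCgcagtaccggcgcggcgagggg

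The Stx4a window holds 1 match, the Pclo window 2 and the Cadps2 window 3, of which 2 overlap in a palindrome that reads the same on both strands. A start in the table was found for 26 of the 35 genes, with 30 windows. Of these windows 17, or 56.7%, held a HIF core motif, beside 38.6% of the 32851 windows of all genes. The 16 genes with a match had a median log2 difference of -0.026, with 7 above 0, and the 10 genes without a match one of -0.038, with 5 above 0. A match describes letters in this window and says nothing of binding.

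The target-membrane SNAREs read as follows. Stx1a, the syntaxin best known from insulin granule fusion, read 620.5, 765 and 1361 in controls and 1404, 731 and 1133 in knockouts. The groups overlapped, and the log2 difference of 0.28 (SE 0.38) had a 95% interval from -0.57 to 1.14. Its second bright probe set had the opposite direction, at -0.31. Stx4a, a syntaxin of the plasma membrane that also serves insulin release, read 956, 863 and 845 in controls and 1080.5, 1119 and 1451 in knockouts. Its knockout signals were 1.36-fold higher with no overlap, a log2 difference of 0.44 (SE 0.26, 95% interval -0.15 to 1.03). Limma's adjusted p was 0.9999, and a two-sided exact permutation test gave 0.1, the smallest p that 3 against 3 arrays can give.

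Stx3, a syntaxin of granule-to-granule and apical fusion, read 3295, 3895 and 4853 in controls and 3056, 2705 and 4377 in knockouts. It was lower in each pair by 0.11 to 0.53 on the log2 scale, and the groups overlapped (difference -0.26, 95% interval -0.91 to 0.39). Its other 3 bright probe sets differed by 1.22, 0.38 and -0.12, and the mean of its probe sets by 0.31. Snap25, the neuronal and endocrine partner of the syntaxins, read 6520.2, 8201 and 4841 in controls and 3371, 8363 and 7152 in knockouts. Knockout 01 was the lowest of the 6 arrays and knockout 02 the highest, so the difference of -0.12 (95% interval -0.97 to 0.73) had no direction shared by the pairs. Snap23, its widely expressed relative, differed by -0.30 and likewise had its lowest value, 301, on knockout 01 and its highest, 936, on knockout 03.

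The vesicle SNAREs differed little, and the interval of each of the 3 lay inside a 2-fold change. Vamp2, the granule SNARE of beta cells and neurons, read 845, 826 and 1287 in controls and 1615, 626 and 875 in knockouts. The mean log2 signals were 9.91 ± 0.36 (SD, n = 3) and 9.91 ± 0.69 (SD, n = 3), a difference of -0.01 (95% interval -0.87 to 0.86). Vamp3, a close relative that also serves recycling vesicles, differed by 0.03 (95% interval -0.67 to 0.73), and one of its 5 bright probe sets stood at -1.12. Vamp8, a SNARE of exocrine granules and endosomes, read 3189, 2562 and 3602 in controls and 3261, 3601 and 3323 in knockouts. Its 6 values stayed within a 1.41-fold range, and its difference was 0.14 (95% interval -0.43 to 0.70).

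In the role of synaptotagmins and Doc2b, it was Doc2b that had the largest difference of all 35 genes. Doc2b binds calcium and the SNARE proteins and is known to support insulin release. It read 49.5, 115 and 103 in controls and 198, 153 and 312 in knockouts, so every knockout array was above every control array. The difference was 1.33 (SE 0.51), a 2.52-fold higher signal, with a 95% interval from 0.18 to 2.49 and an unadjusted limma p of 0.0281, which gave an adjusted p of 0.9999. The exact permutation test (two-sided) gave a p of 0.1. The signals were dim, since 2 of the controls lay below their array's median. A second Doc2b probe set, above the median on 3 of the 6 arrays, overlapped between genotypes with a difference of 0.36. The mean of both probe sets differed by 0.85, and on that measure the genotypes overlapped. The chosen probe set differed by 0.95 when control 01 was left out.

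Syt1, the classical calcium sensor of synaptic vesicles, read 646, 847 and 666 in controls and 742, 1068 and 1983 in knockouts. On the chosen probe set the difference was 0.70 (SE 0.38, 95% interval -0.14 to 1.55). It rested largely on knockout 03 and was 0.32 without that array. A second Syt1 probe set, above the array's median on 3 arrays, read 73.4, 61.5 and 85.6 in controls and 124.5, 147.7 and 102.2 in knockouts. There the genotypes did not overlap, the difference was 0.76, and knockout 03 was the lowest of the knockouts. Syt7, the sensor best known from insulin secretion, read 2892, 2811 and 8660.4 in controls and 9051, 2448 and 6697 in knockouts. High and low values occurred in both genotypes, and its difference of 0.36 had an interval from -0.91 to 1.63, which reaches past 2-fold. Its 4 bright probe sets lay between -0.42 and 0.36.

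The other synaptotagmins overlapped between genotypes. Syt4, which has a reduced response to calcium, read 2921, 2247 and 2247 in controls and 1393, 1672 and 2333 in knockouts, a difference of -0.48 (95% interval -1.13 to 0.17). Syt9, which serves fast calcium-triggered release, differed by 0.29 and was high, at 1336, on knockout 01 alone. Syt5 differed by -0.45, Syt11 by 0.04 and Syt13 by -0.07. Syt11 had 5 bright probe sets, of which the chosen one had the smallest difference. The others differed by 0.44, 0.21, 1.03 and 0.25, each higher in 3 of 3 pairs, and each overlapped between genotypes.

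**Figure D2:**
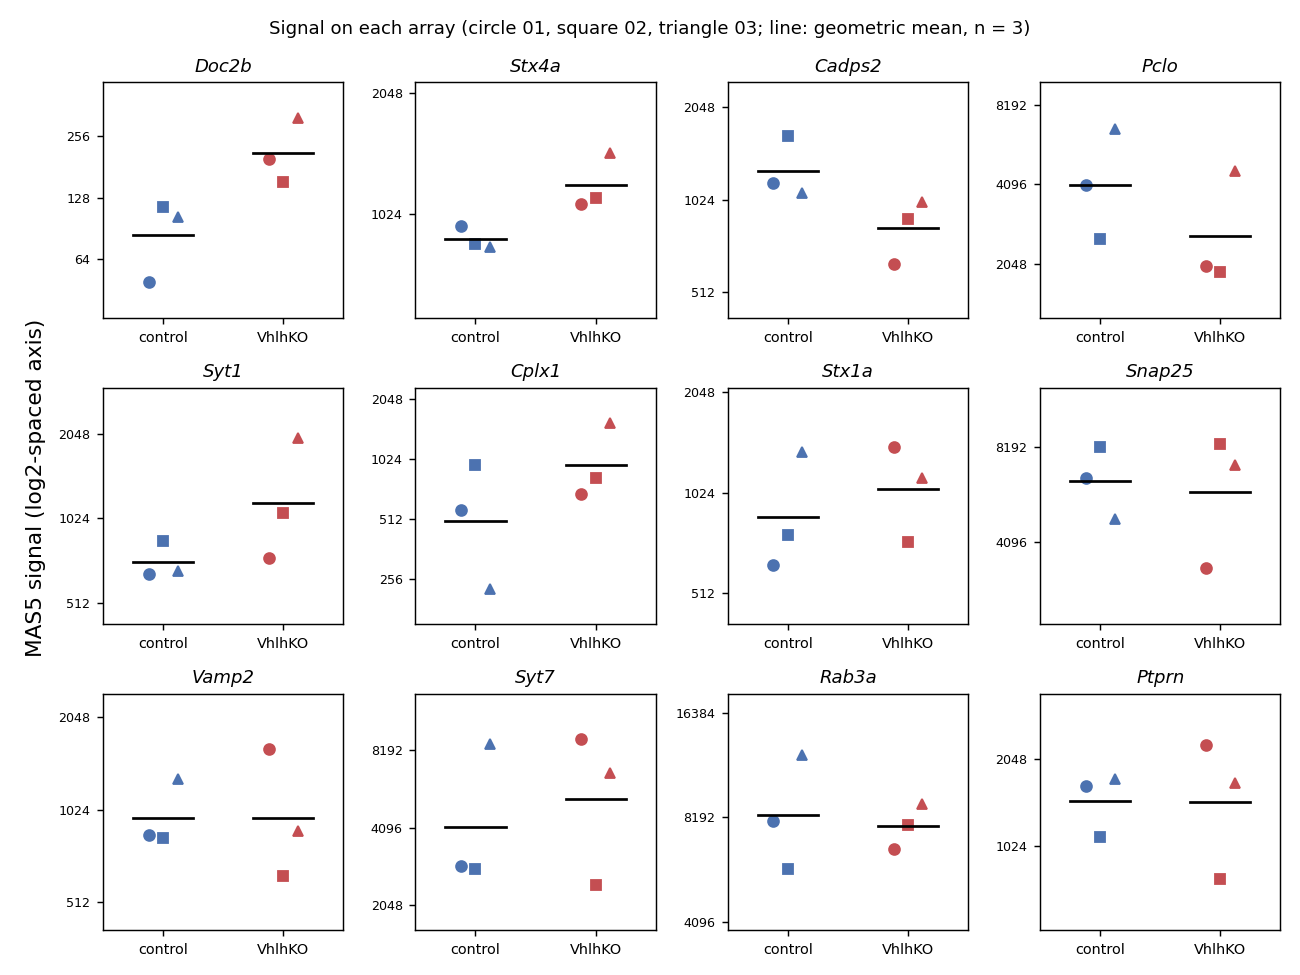
MAS5 signal (vertical axis, log2-spaced, different range in each panel) of 12 exocytosis genes on the 3 control and 3 VhlhKO arrays. Lines are geometric means. In the panels of Doc2b, Stx4a and Cadps2 the genotypes do not overlap, and in the other 9 they do.

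Of the 9 Rab GTPases and effectors, 7 had differences below 0, beside 5757 of the 11703 genes tested. The pairs were not alike: 1 of the 9 was higher in the knockout in pair 01, 5 in pair 02 and 5 in pair 03. The medians in these pairs were -0.47, 0.07 and 0.03. Without the replicate block, 0 of the 9 passed the adjusted threshold or an unadjusted limma p of 0.05. Pclo, which encodes the active-zone scaffold Piccolo, read 4059, 2535 and 6651 in controls and 2002, 1917 and 4614 in knockouts. The array numbered 03 was the highest of its genotype in both groups, and the groups overlapped. The difference was -0.65 (SE 0.45, 95% interval -1.65 to 0.35), and it was lower by 1.02, 0.40 and 0.53 in the pairs 01, 02 and 03. With the replicate number as a block, its unadjusted limma p moved from 0.178 to 0.0218, and the adjusted p was 0.905. Its 3 bright probe sets all differed in the same direction, between -0.65 and -0.34. The value depended on single arrays: it was -0.30 without control 03 and -1.06 without knockout 03.

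Rab3a, the GTPase of docked synaptic and insulin granules, read 7977, 5825 and 12333 in controls and 6648, 7760.4 and 8961 in knockouts. Its difference was -0.10 (95% interval -0.80 to 0.59). Rab27a, which tethers granules to the cell cortex, read 2631, 4089 and 2075 in controls and 1971, 4826 and 2174 in knockouts, a difference of -0.04 (95% interval -0.95 to 0.88). Array 02 was the highest of its genotype in both groups. Exph5, a Rab27 effector, read 3739.6, 3289.7 and 7114 in controls and 3619, 2882 and 3886 in knockouts, and differed by -0.37 (95% interval -1.12 to 0.38).

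Sytl4, the effector granuphilin that docks insulin granules, differed by -0.13 (95% interval -0.73 to 0.48). Rims2, a Rab3 effector at release sites, differed by -0.18. The other Rab3 isoforms were Rab3b at -0.23, Rab3c at 0.41 and Rab3d at 0.04, and each overlapped between genotypes.

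Priming and SNARE-regulating genes held the third gene without overlap. Cadps2, a CAPS protein that primes dense-core granules, read 1162, 1646 and 1080.0 in controls and 633, 887 and 1008 in knockouts. The knockout signals lay below all controls, by 0.88 and 0.89 in pairs 01 and 02 and 0.10 in pair 03. The difference was -0.62 (SE 0.30, 95% interval -1.31 to 0.06), with an unadjusted limma p of 0.0697 and, with the replicate block, 0.0437. The adjusted p was 0.9999, or 0.979 with the block, and the exact permutation test (two-sided) gave 0.1. Its relative Cadps read 6216, 3162 and 3970.5 in controls and 3971, 5083 and 5119 in knockouts and differed by 0.13 (95% interval -0.55 to 0.82).

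The complexins, which clamp and support the assembled SNARE complex, varied most within genotypes among the priming genes. Cplx1 read 569.7, 957 and 227 in controls and 679, 817 and 1549 in knockouts. Its difference of 0.93 (SE 0.53, 95% interval -0.26 to 2.12) came from the pair 03, at 2.77, and was 0.01 without both arrays numbered 03. One of its 3 bright probe sets stood at -0.44. Cplx2 read 1853, 3436 and 3879 in controls and 4849.9, 4149 and 958 in knockouts, so it was highest on knockout 01 and lowest on knockout 03. Its difference was -0.12 with an interval from -1.44 to 1.21, the widest of the role.

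Nsf, the ATPase that takes SNARE complexes apart, read 2519, 2528 and 2276 in controls and 2501, 2119 and 2754 in knockouts. Its 6 values stayed within a 1.30-fold range, the narrowest of the 35 genes, and its 95% interval ran from -0.56 to 0.56. Napa, which encodes the adaptor of Nsf, differed by -0.27. Stxbp2, a partner of syntaxins in exocrine and blood cells, read 792, 485 and 472 in controls and 931, 679 and 725 in knockouts, higher in 3 of 3 pairs, with a difference of 0.45 (95% interval -0.25 to 1.14). The _x_at probe sets among its 3 bright ones differed by 0.07 and -0.19. Unc13a, the gene of a Munc13 priming factor, differed by -0.22.

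Both granule membrane proteins, receptor-type phosphatase relatives of dense-core granules and known autoantigens of diabetes, had intervals inside a 2-fold change. Ptprn read 1648, 1096 and 1745 in controls and 2299, 782 and 1698 in knockouts, a difference of -0.02 (95% interval -0.95 to 0.92). Ptprn2 read 12313, 9069.9 and 11386 in controls and 10232, 7576 and 10313 in knockouts. It was lower in each pair by 0.14 to 0.27, and its difference was -0.22 (95% interval -0.78 to 0.33). A second Ptprn2 probe set, above the array's median on 1 array only, read at least 72.4 in controls and at most 25.8 in knockouts.

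Some of these genes are also known from other cells of an islet preparation, so their values were set beside markers of those cells. Vamp8, Stxbp2, Rab3d, Stx3 and Snap23 are known from acinar granules. Over the 6 arrays the mean log2 signal of the 8 acinar markers ranged over 5.61, and was lowest on knockout 03. The same ranges were 0.49 for Vamp8, 0.98 for Stxbp2, 1.20 for Rab3d, 0.84 for Stx3 and 1.64 for Snap23, all smaller than that of the markers. The chosen probe set of Rab3d, like the markers, was lowest of the knockouts on array 03 and lowest of the controls on array 03, at 2159.6 and 2332. Further bright probe sets of Rab3d did not share both lows. On control 03 they read 2682 and 399, each the highest of the controls, and 1014, the lowest. On knockout 03 the lowest of the knockouts was a reading of 71, while the others had their knockout lows on knockout 02, at 1279 and 859. Snap23 and Stx3 were highest of the knockouts on array 03, and Vamp8 and Stxbp2 were neither highest nor lowest of all arrays on knockout 03. On control 03 Stxbp2 was lowest of all arrays, at 472, and Vamp8 highest, at 3602. Of the controls, Snap23 was lowest on array 03, at 627, and Stx3 highest, at 4853. These are the orders of the chosen probe sets. Further bright ones of Stxbp2 were lowest on knockout 02, at 304 and 239, and highest on knockout 03, at 729 and 429. For Snap23 such a probe set was highest of all arrays on control 03, at 539, and another lowest of the controls there, at 133. Further bright probe sets of Stx3 were not highest of their genotype on array 03.

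Syt1, Rab3c and Cplx1 are known from neurons. On the chosen probe sets, knockout 03 had the highest signal of all 6 arrays for each of these 3 genes. It read 1983 for Syt1, 1206 for Rab3c and 1549 for Cplx1. It also had the highest mean of the 5 neuron and Schwann cell markers, 0.93 above the 6-array mean. Control 03 was the lowest array for Cplx1, at 227, and for the mean of these markers, at 1.18 below the 6-array mean. A further bright probe set of each gene differed from this. Knockout 03 was lowest of the knockouts for Syt1, at 102, and of all arrays for Cplx1, at 50. For Rab3c knockout 01 was highest, at 245, beside 212 on knockout 03. The third bright probe set of Cplx1 was highest on knockout 03, at 446. Other genes known from neurons did not share this order: Cplx2 was lowest of all arrays on knockout 03, at 958, and Snap25, Vamp2, Rab3a and Unc13a were not highest there. Not every neuron and Schwann cell marker followed the list mean. Nefl and Tubb3 were lowest on control 03 and highest on knockout 03. Nefm shared the high of knockout 03 but was lowest on control 01, at 260. Prph shared the low of control 03 but was highest on knockout 02, at 1059. Sox10 was highest of all arrays on control 03, at 389, and read 256 on knockout 03. All 5 of the markers had a higher mean in knockouts, by a mean log2 difference of 1.02, although Sox10 was lower in 2 of 3 pairs. Endothelial markers (4 of 4), fibroblast markers (4 of 4) and leukocyte markers (4 of 4) also had higher means in knockouts. Among these, Pecam1 was lower in 2 of 3 pairs, and the leukocyte markers Cd68 and Cd3e were too dim to be tested. Summed endothelial signals ran from 3763 to 4439 in controls and from 5876 to 7733 in knockouts, and leukocyte signals from 758 to 865 and from 925 to 1468, both without overlap. Most of the endothelial sum came from Kdr, at 3297 to 3767 in controls and 4673 to 7130 in knockouts. The part of other cells in these differences was not tested, and these groups of genes were put together after their values were seen.

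**Figure D3:**
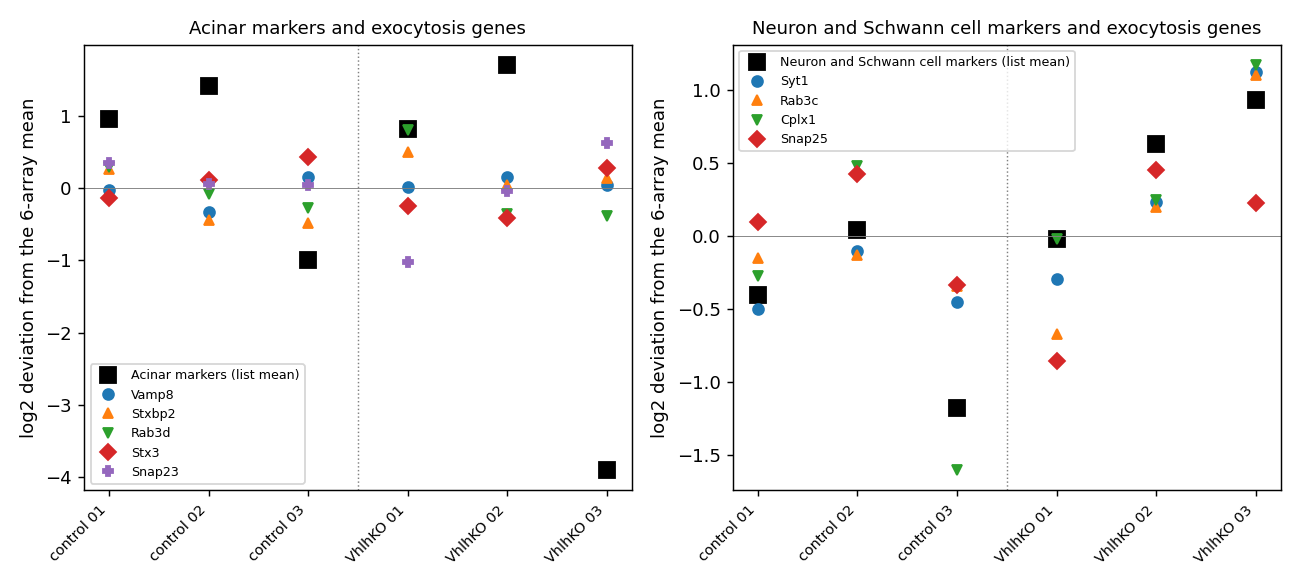
Log2 deviation from the 6-array mean (vertical axis) on each array, for acinar markers with 5 exocytosis genes (left) and for neuron and Schwann cell markers with 4 exocytosis genes (right). Squares are list means. Acinar markers were at -3.90 on knockout 03 and their mean ranged over 5.61 on the 6 arrays, while the range of the 5 genes was at most 1.64. The chosen probe sets of Syt1, Rab3c and Cplx1 were highest on knockout 03, while that of Snap25 was highest on knockout 02.

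Across the arrays, the 35 genes did not move as a block. In the pair 01, 18 genes were higher in the knockout, in the pair 02 again 18, and in the pair 03 there were 15. The median differences were 0.032, 0.00035 and -0.10 in these pairs. By role, the median log2 difference was -0.12 for the 5 target-membrane SNAREs, 0.03 for the 3 vesicle SNAREs and 0.16 for the 8 synaptotagmin and Doc2b genes. It was -0.13 for the 9 Rab genes and effectors, -0.06 for the 8 priming and regulating genes and -0.12 for both granule membrane proteins. Of 24 genes with more than 1 bright probe set, 12 had probe sets that all differed in one direction and 12 did not. Stx1a, Vamp3, Syt11 and Rab3a were represented by probe sets of the _x_at class, whose probes can also match other transcripts.

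**Figure D4:**
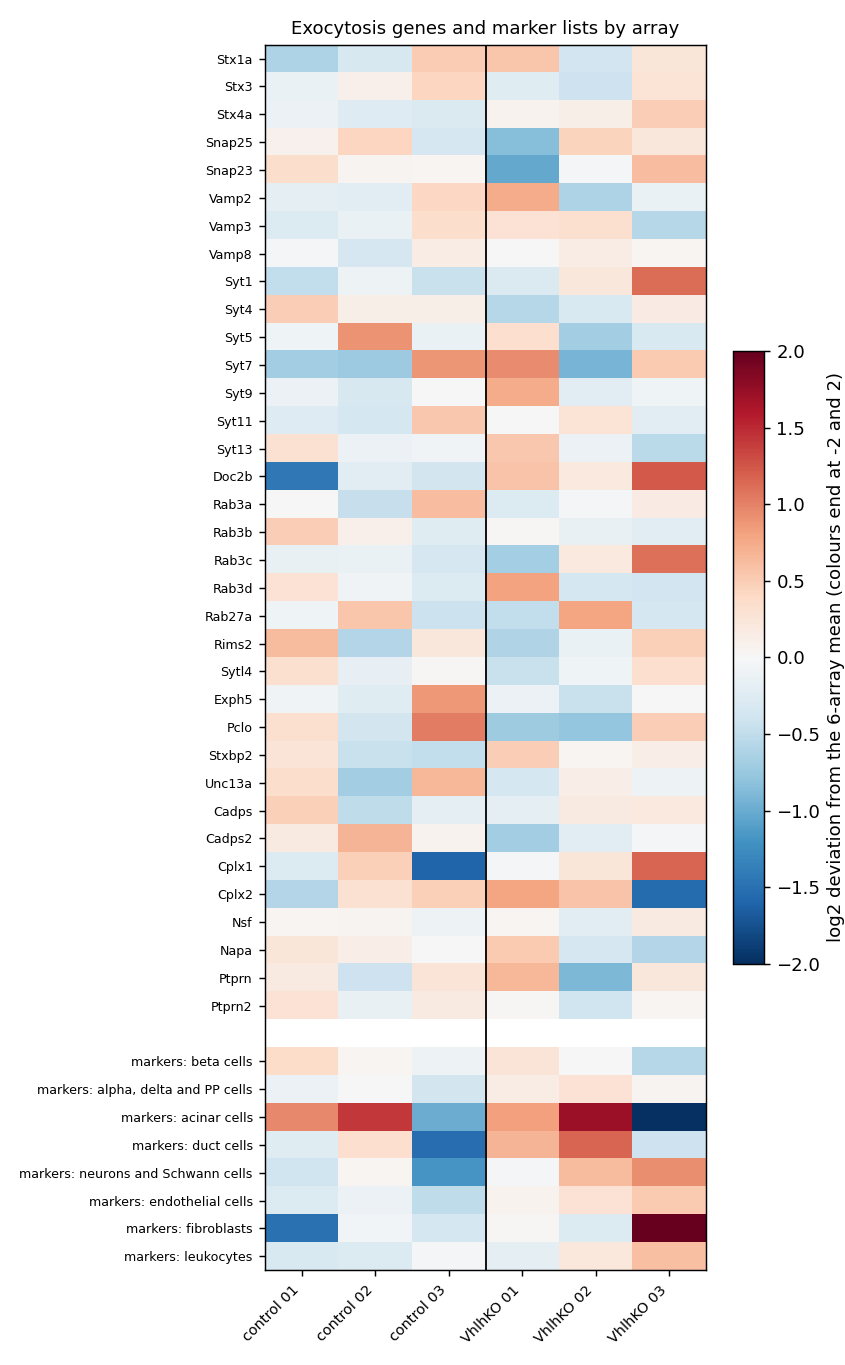
Log2 deviation from the 6-array mean for the 35 exocytosis genes (upper rows) and 8 marker lists (lower rows) on the 6 arrays. Colours end at -2 and 2, which acinar markers on knockout 03 (-3.90) and fibroblast markers on the same array (2.14) exceed. The marker rows of acinar cells and fibroblasts spread further than any of the 35 genes.

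The wider set of exocytosis genes gave a similar picture. Of 67 further genes listed, which included other SNAREs, synaptotagmins, Rab effectors, synaptic vesicle proteins and exocyst subunits, 64 were on the array and 52 were tested. With limma, 0 of the 52 passed the adjusted threshold, and 1 had an unadjusted p under 0.05 and was higher, beside 2.03% of all genes tested. That was Bsn, which encodes Bassoon, the active-zone relative of Piccolo. It read 345, 308 and 425 in controls and 543, 684 and 498 in knockouts, with no overlap and a difference of 0.68 (95% interval 0.03 to 1.32, limma adjusted p 0.9999). The median log2 difference of the 64 genes was 0.012, with 33 above 0 and 31 below 0. The next lowest p-values belonged to Syt2, a calcium sensor of fast synapses, at 0.71 (SE 0.36), the syntaxin gene Stx2, at -0.48 (SE 0.31), and the granule GTPase gene Rab37, at -0.36 (SE 0.24). Groups did not overlap for 3 of the 64 with higher knockout signals, Bsn, Syt2 and Rph3a, and for 2 with lower ones, Rab37 and Syt10, beside 4.5% and 3.13% of all genes on the array. Rph3a and Syt10 were too dim to be tested and are named after their values were seen.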

How the data were processed

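Each deposited number is a signal intensity on a linear scale, 1 per probe set. The submitters' processing notes name GCOS 1.4 and MAS5. RNA was amplified in consecutive rounds before hybridisation, per the labels' protocols. The 2% trimmed mean was 500.003 on each array, which shows the authors' global scaling, and nothing further was normalized here. No scan date or detection call was used. Of 45101 probe sets, 64 controls were left out, and 34945 had 1 gene symbol in the platform annotation, 932 several and 9160 none. Updating through RefSeq (GRCm38.p6) matched 34741 and changed 0 symbols. Genotypes were compared on log2 signals by limma 3.58.1 under R 4.3.3 (lmFit, eBayes with an intensity trend) and Benjamini-Hochberg adjustment over the 11703 genes tested, threshold 0.05, with nothing added before log2. The code was tested on simulated data. The number of arrays limits precision.

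Alternatives were a replicate block, quantile normalization, a pseudocount of 32, other filters and probe set rules, array weights and leaving out arrays. Genes were named if their groups did not overlap, if their unadjusted p was under 0.05, if they were among those of lowest p in a role, or if well known. The genes and lists were chosen with earlier results of these data known. Deviations from group means correlated at 0.14, 0.41 and 0.42 in the pairs numbered 01, 02 and 03, each over 0.1, so the numbers were taken to pair the samples, with the age and sex the labels give them. Control 01 with knockout 02 also reached 0.14.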

Additional observations from a re-analysis of the deposited data

How the results depend on the processing

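The count of exocytosis genes past the adjusted threshold was 0 under every alternative run, and so was that of the further exocytosis genes. Fitting the replicate number as a block changed no call: 0 of the 35 genes and 2 genes of 11703 passed, and at an unadjusted p under 0.05 there were 3 of the 35 genes, Doc2b, Pclo and Cadps2, in place of 1, and 584 genes of all in place of 300. The count over all genes, 2, fell to 1 with the stricter filter and ran from 0 to 4 when arrays were left out. It was 0 without control 01, without knockout 01 and without knockout 03. Doc2b did not pass the stricter filter. With probe sets of a gene averaged, genes without overlap were Cadps2 and Ptprn2 with lower knockout signals, 2 in place of 1, and Stx4a, Syt11 and Rab3c with higher ones. Doc2b was then no longer among them. When arrays were left out, genes without overlap numbered from 2 to 6 with higher and from 1 to 7 with lower knockout signals, which fewer arrays make easier, and the median difference ran from -0.14 to 0.058.

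Directions turned for some genes, whose differences lay between -0.26 and 0.36. With quantile normalization Vamp2 was at 0.0027 and Vamp3 at -0.059. Without _x_at probe sets Rab3a was at 0.056 and Stx1a at -0.31. With probe sets of a gene averaged Stx1a was at -0.016, Stx3 at 0.31, Syt7 at -0.0072 and Vamp3 at -0.15. With array weights Rab3a was at 0.064 and Vamp2 at 0.027. When arrays were left out, Ptprn ran from -0.35 to 0.43, Rab27a from -0.44 to 0.23, Rab3a from -0.36 to 0.18, Snap25 from -0.46 to 0.30, Stx1a from -0.17 to 0.61, Syt7 from -0.28 to 0.91, Vamp2 from -0.48 to 0.30, Vamp3 from -0.24 to 0.51 and Vamp8 from -0.042 to 0.26. The cause was not tested. With 3 arrays in a group and no replicate block, intervals of about 2-fold were the limit for many genes. With the block, standard errors were smaller for all of the 35 genes except Syt5 and Cplx1. That of Pclo was 0.225 in place of 0.445 and that of Rab27a 0.229 in place of 0.404. Those of Syt5 and Cplx1 were slightly larger, at 0.450 in place of 0.440 and 0.532 in place of 0.527.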
